A study of Bos taurus with 15 samples.

Results

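A set of 10 genes of the spermatogonial stem cell and its niche were followed in testis tissue of 15 cattle: GDNF, GFRA1, RET, KITLG, KIT, UCHL1, NANOS2, ID4, SALL4 and DAZL. They were chosen by name, not by level, though earlier results of these data were known at the time. Of them 10 of 10 had a probe, out of 15079 named genes on the array. RET had 3 probes and every other gene 1, which made 12 of the 21475 probes. Testes of 7 untreated animals were compared with those of 8 animals that received 30 mg of prednisolone, a synthetic glucocorticoid, per os each day for a period of 35 days. Tissue came from the slaughterhouse, and 1 single-colour Agilent array was run per animal. The breed, age and fertility of the animals are not given in the sources used here. The question was whether the transcripts of the stem cell and of its signals differed between treated and control testis.

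Spermatogonial stem cells sit on the basement membrane of the seminiferous tubule and divide to renew themselves or to enter sperm formation. Sertoli and peritubular cells secrete GDNF, which binds GFRA1 on the undifferentiated spermatogonium and signals through the receptor tyrosine kinase RET. NANOS2, ID4, SALL4 and UCHL1 are used as markers of undifferentiated spermatogonia, and ID4 and UCHL1 are also made outside the germ line. When spermatogonia differentiate they begin to depend on KIT, the receptor of the Sertoli cell ligand KITLG. KIT is also made by Leydig cells and mast cells. DAZL is an RNA-binding protein of germ cells that is needed from the earliest germ line stages through meiosis.

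A level below is the log2 processed signal of a probe minus the log2 of its array's 75th percentile, averaged over the 2 spots of the probe. Levels of different probes cannot be set against each other, so each gene was compared only across animals. In whole tissue, fewer cells of a type and less RNA per cell cannot be told apart. A spot is called well above background when the scanner software finds it brighter than its surroundings, and 82.2% to 89.9% of probes met this on 14 of the arrays. The array of prednisolone 30 was dim: 36.5% of its probes met it, and its 75th percentile was 49.8, where the others had 1220 to 2780. Its scanner values also did not follow its column in the authors' deposited table. The correlation of file and column, each probe centred on the other 14 arrays, was 0.0184 there and 0.935 to 0.984 elsewhere. Markers of testis cells were detected: 6 of 6 Leydig cell, 10 of 11 Sertoli cell, 8 of 8 meiotic and 8 of 9 spermatid genes with a probe were well above background on all 14 arrays. Most probes met the call on each of these arrays, and so did 8 of 8 macrophage genes on all 14. The share of all genes that met it on all 14 was not computed, so the counts do not test the testis label. Slide and scan day were shared by both groups only in part. Scan day 1, with 9 arrays, was the only day that held both groups. Slide 1, with 4 arrays, and slide 4, with 3, were the only slides that did. A difference with scan day or slide as a block rests on those arrays alone, and its controls are control 17, 18 and 23. With scan day it is the same as the difference within scan day 1. Values with either block are given for the tested genes.

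The stem cell and niche genes did not separate treated from control animals. With limma, 0 of the 7 genes bright enough to be tested passed an adjusted p of 0.05, and over all 17411 tested probes 0 passed (0%). At an unadjusted p under 0.05 there were 0 of the 7 genes, where 2.69% of all tested probes were under it. Without prednisolone 30 the counts were again 0 of 7, with 0% of all probes past the adjusted threshold and 4.55% at an unadjusted p under 0.05. Control and treated ranges overlapped for all 12 probes, with and without prednisolone 30. The share of all probes with overlapping ranges was not computed, so this count does not set these genes apart.

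Detection divided the genes into 3 kinds. RET, KITLG, KIT, UCHL1, ID4 and DAZL, 6 of the 10, were well above background on every one of the 14 brighter arrays. On each of those arrays 82.2% to 89.9% of all probes met the call. GFRA1 met the call on 6 control arrays of 7 and on 7 of the 7 treated arrays other than prednisolone 30. GDNF, NANOS2 and SALL4 were well above background on fewer arrays and were not tested with limma. On the array of prednisolone 30 only RET, 1 of the 10 genes, was well above background. The values of the other 9 genes there, from -4.49 to -1.35, failed the scanner's call, although each lay above -4.73, the lowest level that any probe with the call had on that array. On the other arrays that lowest level lay between -10.03 and -7.56.

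**Figure D1:**
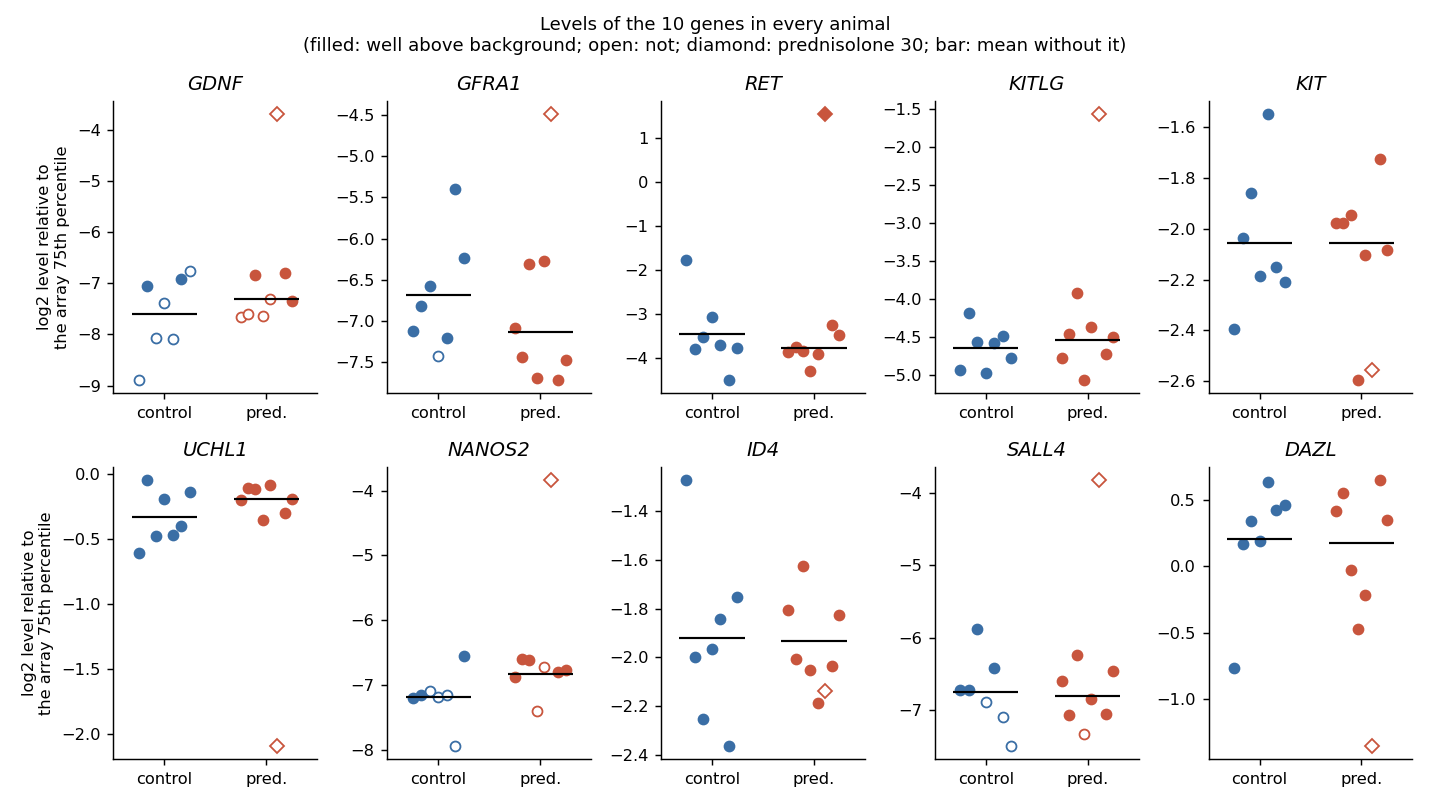
Log2 level relative to the array's 75th percentile (vertical axis, a separate scale per gene) for each of the 7 control and 8 prednisolone (pred.) animals. Filled symbols are well above background, open symbols are not, the diamond is prednisolone 30 and the bar is the group mean without it. The groups overlap in every panel, and prednisolone 30 stands apart in most, with an open symbol everywhere except RET.

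GDNF, the ligand that keeps stem cells renewing, was near the limit of detection. Its spots met the background call on 2 control arrays of 7 and on 3 treated arrays of 8. Control levels were -8.89 at the lowest, -7.38 at the median and -6.76 at the highest. In treated animals other than prednisolone 30 they were -7.65, -7.34 and -6.79. Control 17 was the lowest of all animals, and the treated animals lay inside the control range. The difference was 0.28 without prednisolone 30 (exact two-sided permutation p = 0.418) and 0.74 with it (exact p = 0.238), where its level of -3.69 was not well above background.

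GFRA1, the receptor subunit that binds GDNF, had control levels of -7.43 at the lowest, -6.82 at the median and -5.39 at the highest. Treated animals without prednisolone 30 had -7.71, -7.43 and -6.27. Of these 14 animals control 23 was the highest and prednisolone 31 the lowest. Controls averaged -6.68 ± 0.70 (SD, n = 7), and these treated animals averaged -7.14 ± 0.61 (SD, n = 7). That is a difference of -0.46 ± 0.31 (SE), with a limma 95% interval of -1.11 to 0.20 and an adjusted p from limma of 0.964, and 2 of the 7 treated values exceeded the control mean. Over all 15 arrays the difference was -0.12 (interval -1.05 to 0.80, limma adjusted p = 0.950). With scan day as a block it was -0.30, and -0.75 without prednisolone 30 (limma adjusted p = 0.822). By quantile normalization of all 15 arrays it was -0.70 (limma adjusted p = 0.824). The spots of this probe disagreed: in prednisolone 31 they read -9.50 and -5.93 on the same array. The spread expected from its spots, an SD of 0.62, was nearly that found between animals within groups, 0.66. The gap of 3.57 in prednisolone 31 weighs heavily in that SD, since the median gap over the 14 arrays was 0.37.

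RET, the kinase that carries the GDNF signal into the cell, was read by 3 probes, of which A_73_108356 was well above background on all 15 arrays. Its control levels were -4.51 at the lowest, -3.70 at the median and -1.78 at the highest. Treated levels without prednisolone 30 were -4.30, -3.84 and -3.26. Control 17, at -1.78, lay above the next highest of the 14 animals, control 21 at -3.07. The other probes of RET also had their highest level of the 14 animals in control 17, at -4.98 for A_73_107367 and -5.72 for A_73_114700. Apart from that animal the 3 probes did not follow each other closely. Across the 14 arrays the Pearson correlation of A_73_108356 was 0.77 with A_73_107367 and 0.44 with A_73_114700, and without control 17 it was 0.48 and -0.02. These correlations are a description, and A_73_114700 was well above background on 3 of 15 arrays.

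The direction of RET between groups rested on single animals. Its difference was 0.34 ± 0.70 (SE) over all 15 arrays, with an interval of -1.14 to 1.82 (limma adjusted p = 0.917). It was -0.33 without prednisolone 30 (interval -0.97 to 0.32), 0.62 without control 17 and -0.05 without control 17 and prednisolone 30. In prednisolone 30 the A_73_108356 probe stood at 1.54, but its spots read 0.29 and 2.79. Their gap of 2.50 compares with at most 0.90 on the other 14 arrays. The other RET probes were not well above background on that array. In the authors' deposited table the column of prednisolone 30 gave this RET probe a log2 value of 7.00, inside the 6.74 to 9.10 of the other animals. With scan day as a block the difference was 0.57, and -0.30 without prednisolone 30. Within the slide that holds prednisolone 30 with 1 control and 1 other treated animal it was 3.31, and within the slide of control 17, with 2 animals of each group, -1.02.

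**Figure D2:**
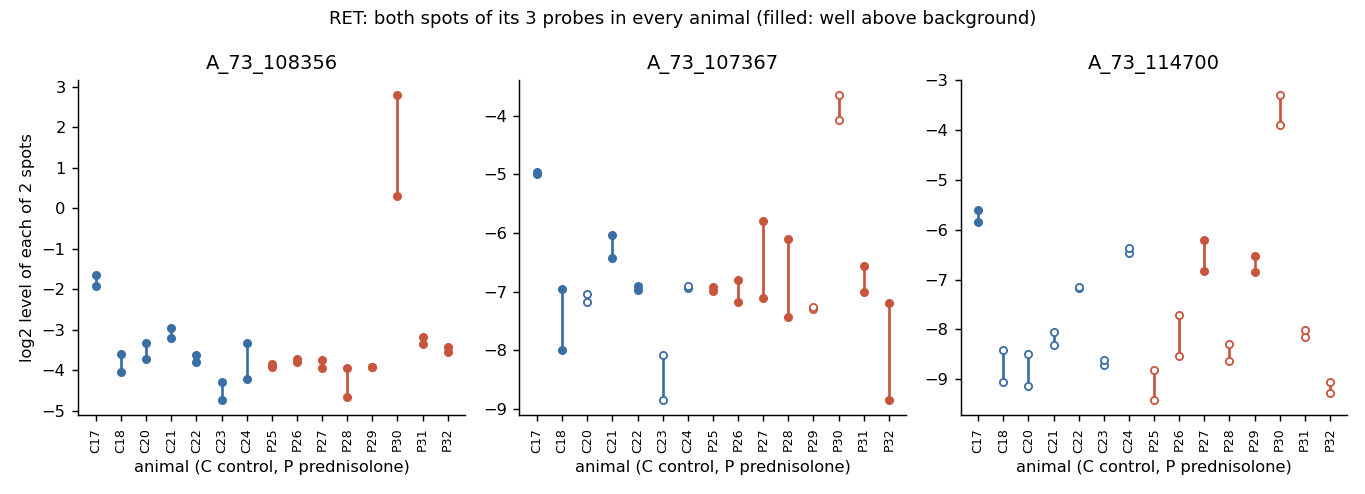
Log2 level (vertical axis, a separate scale per probe) of each of the 2 spots of the 3 RET probes in each animal, C for control and P for prednisolone, joined by a line; filled symbols are well above background. Control 17 is the highest of the 14 brighter arrays on all 3 probes, and the spots of prednisolone 30 on A_73_108356 lie 2.50 apart.

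Control 17 lay outside the range of the other 13 animals in 4 of 7 lists of other cell markers. Each list mean that follows is centred on each gene's mean over the 14 brighter arrays. Peritubular myoid markers, 6 of 6 well above background on the 14 arrays, stood at 1.47 in control 17, against -0.47 to 0.36 in the other 13 animals, and macrophage markers, 8 of 8 well above background, at 0.77, against -0.44 to 0.30. Spermatid markers stood at -0.74, against -0.26 to 0.43, and differentiating spermatogonia at -0.47, against -0.12 to 0.22. Mast cell markers stood at -0.65, against -0.51 to 0.65. Inside the range of the others were Sertoli cell markers at 0.28 (-0.32 to 0.46), Leydig cell markers at 0.05 (-1.22 to 0.78) and meiotic markers at -0.35 (-0.37 to 0.35). Undifferentiated spermatogonia, at 0.02, lay inside the range of the others, -0.10 to 0.08. Control 17 also lay outside the others in lists that are not cell markers. GDNF family and receptor signalling stood at 0.31 (-0.11 to 0.16) and KIT signalling at 0.20 (-0.12 to 0.11). Other niche factors and their receptors stood at 0.49 (-0.20 to 0.10) and germ line RNA-binding proteins at -0.38 (-0.14 to 0.17). Relatives and partners of ID4, SALL4 and UCHL1 stood at 0.23 (-0.15 to 0.07). In limma's array weights, which are low for arrays far from their group over all tested probes, control 17 had 0.26. Only prednisolone 30, at 0.038, had less. Control 17 was thus not unusual in these lists alone. The part of any cell type in its levels was not tested.

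KITLG, the Sertoli cell ligand of KIT, was well above background on each of the 14 brighter arrays. Control levels were -4.96 at the lowest, -4.57 at the median and -4.18 at the highest. Those of the 7 brighter treated arrays were -5.06, -4.49 and -3.92. Prednisolone 28 was the lowest of the 14 animals and prednisolone 27 the highest, so the treated group spanned the control range. The difference was 0.10 without prednisolone 30, with a limma 95% interval of -0.26 to 0.45 (adjusted p = 0.979). Over all 15 arrays it was 0.47 (interval -0.36 to 1.30, limma adjusted p = 0.885), with prednisolone 30 at -1.57 and not well above background. In the authors' deposited table, where that animal has another column, the difference was -0.05. With scan day as a block and without prednisolone 30 it was -0.02.

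KIT, the receptor that marks differentiating spermatogonia, had nearly the same mean in both groups. Control levels were -2.40 at the lowest, -2.15 at the median and -1.55 at the highest. On treated arrays other than prednisolone 30 they were -2.59, -1.98 and -1.73. Controls averaged -2.05 ± 0.28 (SD, n = 7), and treated animals other than prednisolone 30 averaged -2.06 ± 0.27 (SD, n = 7). They differed by -0.00301, with a limma interval of -0.32 to 0.31 (adjusted p = 0.998), and 4 of the 7 treated values exceeded the control mean. With prednisolone 30, at -2.55, it was -0.07 (interval -0.42 to 0.29, limma adjusted p = 0.936). With scan day as a block it was 0.12, and 0.22 without prednisolone 30 (limma adjusted p = 0.822). Mast cell markers, of which 4 of 5 with a probe were well above background on all 14 arrays, had list means of -0.65 to 0.65 in controls and -0.28 to 0.22 in the 7 treated animals. Leydig cell markers had -0.29 to 0.36 and -1.22 to 0.78. The part of these cells in the KIT level was not tested.

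The receptor genes KIT and GFRA1 were also set against each other as the KIT level minus the GFRA1 level of the same array, in which a constant scaling cancels. The spread of GFRA1 was near the error of its spots and KIT is also made outside the germ line, so this difference does not measure a balance of spermatogonia. Controls had 3.24 to 5.66, and treated animals without prednisolone 30 had 4.17 to 5.99. The contrast between groups was 0.45 without prednisolone 30 (exact two-sided permutation p = 0.266) and 0.06 with it (exact p = 0.923). Control 23 had the lowest value of the 14 animals and prednisolone 31 the highest, which are the animals with the highest and the lowest GFRA1. The contrast was 0.42 with scan day as a block, and 0.97 when prednisolone 30 was also left out. With all arrays but control 23 it was -0.17, and by quantile normalization 0.52 over all 15 arrays. The matching difference between the ligands KITLG and GDNF was not tested, since GDNF was well above background on too few arrays.

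**Figure D3:**
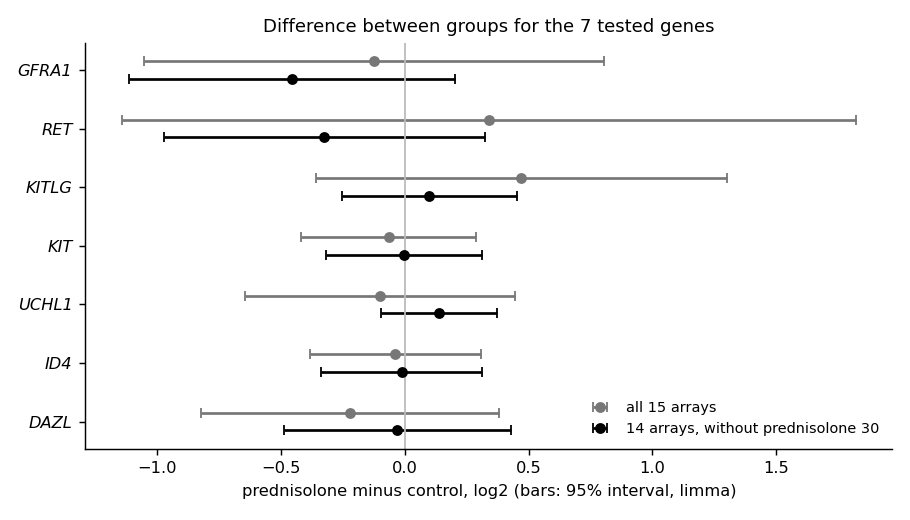
Prednisolone minus control difference in log2 level (horizontal axis) for the 7 tested genes, with the 95% interval from limma, over all 15 arrays (grey) and without prednisolone 30 (black). Every interval spans 0, and leaving out prednisolone 30 narrows the intervals of RET and KITLG most and moves RET from 0.34 to -0.33.

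UCHL1, a deubiquitinase abundant in spermatogonia, varied least of the 7 tested genes within groups when prednisolone 30 was left out. Control levels were -0.61 at the lowest, -0.40 at the median and -0.04 at the highest. Treated levels without prednisolone 30 were -0.35, -0.19 and -0.08, and 6 of 7 lay above the control mean. The treated animals fell inside the control range, and the lowest of the 14 was control 17. Controls averaged -0.33 ± 0.21 (SD, n = 7), and treated animals other than prednisolone 30 averaged -0.19 ± 0.10 (SD, n = 7). They differed by 0.14, with a limma interval of -0.10 to 0.37 (adjusted p = 0.964). With prednisolone 30, at -2.09 and not well above background, the difference was -0.10 (interval -0.64 to 0.45, limma adjusted p = 0.936). A block for scan day gave -0.15, and 0.17 without prednisolone 30. Its SD within groups over the 14 arrays, 0.16, was at percentile 5.79 of all tested probes, whose median was 0.31.

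NANOS2, a repressor of translation that holds germ cells in the undifferentiated state, met the background call on 3 control arrays of 7 and 5 treated arrays of 8. Control levels were -7.94 at the lowest, -7.16 at the median and -6.55 at the highest. The 7 brighter treated arrays gave -7.40, -6.78 and -6.60, and 6 of 7 lay above the control mean. The difference was 0.35 without prednisolone 30 (exact two-sided permutation p = 0.0705) and 0.73 with it (exact p = 0.0494). With prednisolone 30, 7 of 8 lay above the control mean, but that animal stood at -3.84, not well above background. This was the smallest of the 12 exact p-values, 1 for each probe. When the filter on dim probes was dropped and limma was run on all 21475 probes, the adjusted p of NANOS2 was 0.916. Its SD between animals within groups, 0.34 over 14 arrays, was no larger than the 0.35 expected from its spots.

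ID4, an inhibitor of helix-loop-helix transcription factors that marks stem cells, had control levels of -2.36 at the lowest, -1.97 at the median and -1.27 at the highest. Treated levels without prednisolone 30 were -2.18, -2.004 and -1.63. Control 17 was the highest animal and control 23 the lowest, so the treated animals lay within the controls. The difference was -0.01 without prednisolone 30, with a limma interval of -0.34 to 0.31 (adjusted p = 0.996), and -0.04 over all 15 arrays (adjusted p = 0.957). Without control 17 it was 0.07. Blocking on scan day gave -0.12, and -0.09 without prednisolone 30. The spots of ID4 agreed closely: the SD between animals within groups, 0.29, was 4.41 times that expected from its spots.

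SALL4, a zinc finger protein of stem and germ cells, met the background call on 4 control arrays of 7 and 6 treated arrays of 8. Control levels were -7.49 at the lowest, -6.73 at the median and -5.88 at the highest. Leaving out prednisolone 30, treated levels were -7.33, -6.84 and -6.24, inside the control range. The difference was -0.05 without prednisolone 30 (exact two-sided permutation p = 0.826) and 0.32 with it (exact p = 0.626).

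DAZL, the RNA-binding protein that germ cells keep into meiosis, had control levels of -0.76 at the lowest, 0.34 at the median and 0.63 at the highest. With prednisolone 30 left out, treated levels were -0.47, 0.35 and 0.65. The medians lay together, while 3 treated animals, prednisolone 27, 28 and 29, stood below all controls except control 17. The difference was -0.03 without prednisolone 30, with a limma interval of -0.49 to 0.43 (adjusted p = 0.996). With prednisolone 30, at -1.35 and not well above background, it was -0.22 (interval -0.82 to 0.38, limma adjusted p = 0.888). Without control 17 it was -0.38. With scan day as a block it was 0.12, and 0.41 without prednisolone 30 (limma adjusted p = 0.822). The low value of control 17 was shared by its spots, at -0.78 and -0.75. The low value of prednisolone 28 was not, since its spots read -1.18 and 0.24.

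With slide as a block, only slides 1 and 4, which hold both groups, bear on the difference. With all 15 arrays in that fit, it was -0.17 for GFRA1, 0.71 for RET, 0.58 for KITLG, 0.07 for KIT, -0.17 for UCHL1, -0.08 for ID4 and -0.02 for DAZL. Without prednisolone 30 it was -0.48 for GFRA1, -0.49 for RET, 0.0062 for KITLG, 0.18 for KIT, 0.22 for UCHL1, -0.12 for ID4 and 0.31 for DAZL. None of the 7 genes passed the adjusted threshold of limma with either block.

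Seen across animals, the 10 genes did not move as a block. Prednisolone 28 had the lowest or second lowest level of the 14 animals in 7 of the 10 genes, and no other animal in more than 4. Its KIT level of -2.59 and KITLG level of -5.06 were the lowest of the 14. Of the other 5, NANOS2 and SALL4 were not well above background on that array. GFRA1 and DAZL had spots that disagreed, at -8.54 and -6.83 for GFRA1. That leaves RET at -4.30, whose spots read -4.65 and -3.95. Among the gene lists, prednisolone 28 was the lowest of the 14 animals in other niche factors and their receptors, at -0.20, and the highest in spermatid markers, at 0.43. Its germ line RNA-binding protein list, at 0.04, and its undifferentiated spermatogonia list, at -0.06, lay inside the range of the other animals. Prednisolone 28 was the only array of its slide and of its scan day, so animal, slide and day cannot be told apart in its levels. The part of spermatids in its levels was not tested. Among the 21 pairs of the 7 tested genes, Pearson correlations over the 14 arrays ran from -0.425 to 0.734. KIT and DAZL had the highest, 0.734, with a Spearman correlation of 0.56. Without control 17 their Pearson correlation was 0.697. GFRA1 and RET, which form 1 receptor, had -0.377. These are descriptions over arrays that share their scaling, and for GFRA1 the error of the spots is nearly as large as the spread.

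**Figure D4:**
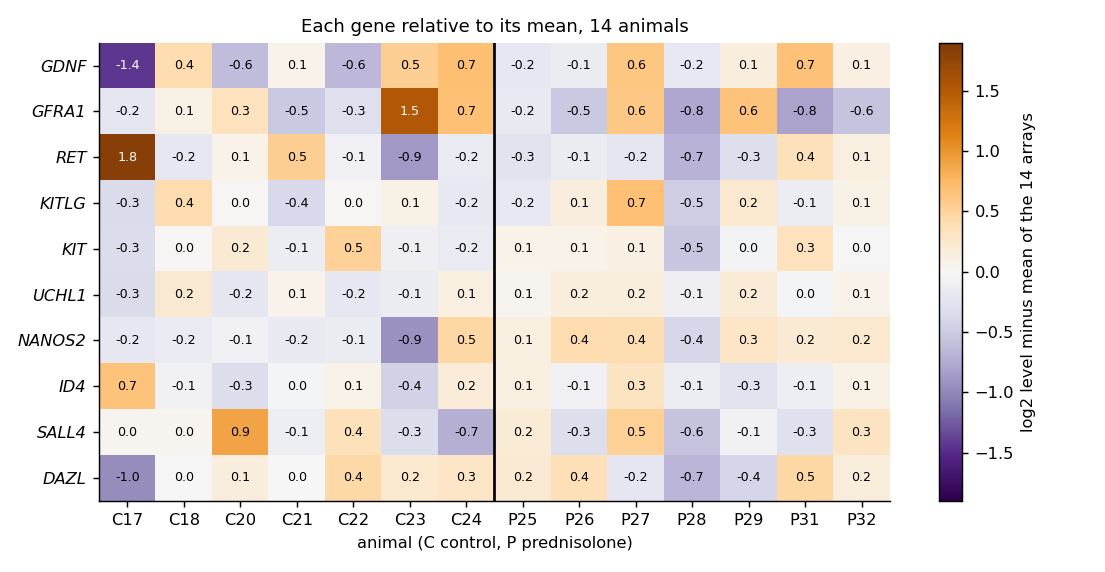
Log2 level of each of the 10 genes in the 14 brighter arrays minus the gene's mean over them (colour and printed value), with controls left of the line and treated animals right of it. Control 17 is high in RET and ID4 and low in DAZL and GDNF, and prednisolone 28 is negative in all 10 genes.

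The spread of each gene between animals was set beside the error of its spots. The spots of a probe share an array and each animal has 1 array. Differences between arrays thus stay within the spread between animals, and the ratio covers the error of the spots only. Over the 14 arrays the SD between animals within groups was 3.28 times the error of the spots for KIT, 3.34 times for RET and 2.01 times for KITLG. It was 1.84 times for UCHL1, 1.82 times for SALL4 and 1.72 times for DAZL. The error of DAZL rests on few arrays. Its spots read -1.18 and 0.24 in prednisolone 28 and -0.28 and 0.96 in control 20. Their median gap over the 14 arrays was 0.059, so the ratio of DAZL says little about its other arrays. For GDNF it was 1.24 times, for GFRA1 1.06 times and for NANOS2 0.987 times. KIT, RET, KITLG and ID4, 4 of the 10 genes, thus varied by more than 2 times the error of their spots. The SD of RET was 0.65 over the 14 arrays and 0.40 without control 17, beside 0.19 expected from its spots. That of ID4 was 0.29 and 0.21, beside 0.065, and that of DAZL 0.44 and 0.33, beside 0.26. Against all tested probes, the spread of RET was at percentile 94.7 over the 14 arrays and at 80.4 without control 17. That of GFRA1 was at percentile 94.9, of DAZL at 79.0, of KITLG at 51.9, of ID4 at 40.6 and of KIT at 36.4.

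**Figure D5:**
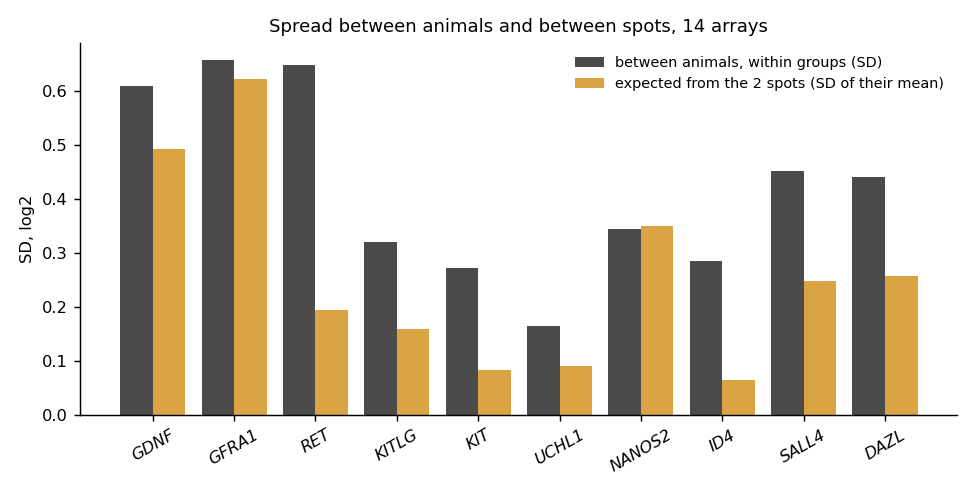
SD of the log2 level between animals within groups (dark bars) and SD expected of a mean of 2 spots from the gap between the spots of each array (light bars), for each of the 10 genes over the 14 brighter arrays. The dark bar clearly exceeds the light one for RET, KIT and ID4, and the bars are nearly level for GFRA1 and NANOS2.

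The other genes of undifferentiated spermatogonia likewise showed no difference past the threshold. Of the 30 listed, 19 had a probe and 13 were tested, 7 with higher and 6 with lower values in treated animals, and 0 passed in limma. Their median difference was 0.02, beside -0.000635 over all 12825 tested genes, of which 6399 had higher and 6426 lower values. PLVAP, which is best known from endothelium, had the smallest p at a difference of 0.47 ± 0.17 (SE, limma adjusted p = 0.885). Its unadjusted limma p was under 0.05 over all arrays. FGFR3, a growth factor receptor of undifferentiated spermatogonia, differed by 0.35 ± 0.21 (SE, limma adjusted p = 0.885), and by 0.18 without prednisolone 30. In differentiating spermatogonia, 5 of 9 tested genes had higher values, 8 of 9 without prednisolone 30 and 2 of 9 without control 17, so the count turned on single animals. CCND2, a cyclin of dividing spermatogonia, differed by 0.66 over all arrays and 0.28 without prednisolone 30, and PRDM1 by 0.44 and 0.21.

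No gene of signalling below the receptors passed the adjusted threshold in limma. In the GDNF family and its receptor pathway, 11 of 24 tested genes had higher and 13 lower values, with a median difference of -0.0024. PIK3R1, a regulatory subunit of PI3 kinase, differed by -0.73 ± 0.33 (SE, limma adjusted p = 0.885), with an unadjusted 95% interval of -1.43 to -0.03 that leaves out 0. It differed by -0.56 without prednisolone 30 and -0.43 without control 17. PIK3R1 was the 1 gene of this list lower at an unadjusted limma p under 0.05. Over all 12825 tested genes 203 were higher and 135 lower at that p. Without prednisolone 30 the list had 1 higher and 0 lower genes at that p, and without control 17 it had 0 of either. SRC, a kinase downstream of RET, differed by 0.51 over all arrays and 0.29 without prednisolone 30. In KIT signalling, 3 of 12 genes had higher and 9 lower values, with a median of -0.07. Without prednisolone 30 there were 5 higher and 7 lower, with a median of -0.03, and without control 17 also 5 and 7, with a median of -0.02. The list mean of prednisolone 30 was -0.64, against -0.12 to 0.20 in the other 14 animals. PTPN11, a phosphatase of receptor pathways, differed by -0.40 over all arrays and -0.21 without prednisolone 30, and RPS6KB1 by -0.24 and -0.13.

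Among other niche factors and their receptors, 12 of 29 tested genes had higher and 17 lower values, with a median of -0.05 and 0 past the threshold. BMPR1A, a receptor for bone morphogenetic proteins, differed by -0.40 ± 0.15 (SE, limma adjusted p = 0.885), and by -0.33 without prednisolone 30. Its unadjusted limma p was under 0.05 over all arrays. IGF1, a growth factor of Leydig and Sertoli cells, differed by -0.57 ± 0.27 (SE, limma adjusted p = 0.885), by -0.46 without prednisolone 30 and by -0.35 without control 17. Of 13 germ line RNA-binding proteins, relatives of DAZL and NANOS2 in function, 7 had higher and 6 lower values, and 9 and 4 without prednisolone 30. PIWIL2, which works with piRNAs, differed by 0.49 over all arrays and 0.20 without prednisolone 30, and MAEL by 0.15 and 0.19. Of 14 relatives and partners of ID4, SALL4 and UCHL1, 5 had higher and 9 lower values, with a median of -0.07. ID1 differed by -0.28 and ID2 by -0.35, and by -0.19 each without prednisolone 30. In the 7 lists together no gene passed, as none did on the whole array.

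The genes whose levels most resembled each tested gene over the 14 arrays were listed by Pearson correlation among 12822 genes, as a description. The highest of so many correlations over few arrays can be high by chance, and that level was not computed. Values without control 17 use 13 of the same 14 arrays, so they are no separate check. KIT was most like NKAIN1 (0.904), AHR, the aryl hydrocarbon receptor (0.861), and SLC1A1 (0.815), and these had 0.921, 0.842 and 0.783 without control 17. For KITLG the nearest were RRP9 (0.90), ZNHIT3 (0.887) and FAM43B (0.848), with 0.915, 0.894 and 0.861 without control 17. ID4 lay nearest to UBQLN2 (0.951), LMCD1 (0.942) and ECHDC1 (0.927), and UCHL1 to CCDC184 (0.90), EIF5B (0.891) and LOC508883 (0.884). Without control 17 these had 0.921, 0.89 and 0.858 for ID4, and 0.868, 0.833 and 0.83 for UCHL1. The genes nearest to RET, FMR1 (0.936), EPHB4 (0.922) and RPL13A (0.922), had 0.804, 0.829 and 0.74 without it. Those of DAZL, NOP58 (0.878), CHAF1B (0.87) and SLC5A1 (0.848), had 0.78, 0.76 and 0.758. Without control 17 none of these genes of UCHL1 or DAZL stayed among the 3 nearest, while ID4 kept UBQLN2 and RET kept EPHB4. GFRA1, with spots that disagreed, was nearest to RIMS3 (0.878), RILPL1 (0.751) and GNB2 (0.736).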

How the data were processed

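Total RNA of 15 testes was hybridised to single-colour arrays, 1 per animal. The values used are intensity, the brightness of a spot, as the authors deposited them for each array. Feature Extraction 9.5.1.1 made them, per the file headers, with background subtracted and trends over the slide removed, per the series' design text. A processed intensity table was deposited as well; it is linear, its column medians run from 341 to 374, and its normalization is unstated; the submitters' processing notes name R 2.11.1.

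Control spots and spots called outliers were left out. A probe was well above background when at least 0.5 of its spots were. It was tested when well above background on at least 7 arrays of a group, which held for 17411 probes. Names came from the accession, gene number, symbol or description of a probe in the files, matched to a bovine gene table of assembly ARS-UCD2.0 (16753 of 21475). GFRA1, NANOS2, ID4 and the RET probes A_73_107367 and A_73_114700 rest on the array's descriptions. The build of the array's design is not given, so no coordinates are printed. A gene stood by its probe of highest mean level. Differences were fitted by limma 3.58.1 (lmFit and eBayes, two-sided, R 4.3.3), with Benjamini-Hochberg adjustment over all tested probes, and exact two-sided permutation tests over all 6435 splits of the animals (3432 without prednisolone 30). The code was tested on simulated data. Animals' numbers name them and pair none. Nothing says how tissue pieces were taken, so p-values set the difference between groups against the spread between these 15 samples. The number of samples limits the precision. Without a block, the p-values do not separate treatment from scan day and slide, which the groups share only in part. The genes, lists and tests were chosen with earlier results of these data known. Named list genes are the 2 of smallest unadjusted p per list. Named alike genes are the 3 of highest correlation, for genes well above background on at least 12 arrays. Scalings, background correction, filter, batches, weights, the deposited table and left-out animals were tried as alternatives.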

Additional observations from a re-analysis of the deposited data

Results flagged for a closer look

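In each group of 7 or 8 animals, the highest and lowest level was compared with its nearest neighbour by Dixon's ratio. The 12 probes gave 24 such groups, and 9 held an animal past the critical value, where about 1.2 would by chance. The groups share their arrays, so flags on 1 array are not separate results. In 8 of the 9 the animal was prednisolone 30, the dim array. That animal stood above the other treated animals in GFRA1 (-4.49), in RET on A_73_108356 (1.54) and A_73_107367 (-3.86), in GDNF (-3.69), KITLG (-1.57), NANOS2 (-3.84) and SALL4 (-3.82), and below them in UCHL1 (-2.09). Of these values, only the RET value on A_73_108356 was well above background. In the authors' deposited table the column of prednisolone 30 lay inside the range of the other 14 animals for 8 of the 10 genes. The exceptions were KITLG, at a log2 value of 5.62 against 5.88 to 6.99, and NANOS2, at 4.65 against 2.95 to 4.50. Which of the measurements belongs to the animal was not settled.

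DAZL in control 17, at -0.76, lay below the other controls, the next of which stood at 0.17. Once prednisolone 30 was left out, NANOS2 in prednisolone 28 lay below the other treated animals, at -7.40 against -6.88 for the next, and it was not well above background there.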

How the results depend on the processing

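Under every alternative run, 0 of the 7 tested genes passed the adjusted threshold; array weights called 1 probe of the whole array, which is none of the 10 genes. The signs of small differences were not stable, and the causes were not tested. The scan day block and the fit within scan day 1 give the same difference, so they are not separate results. The strictest filter left GFRA1 untested. Combinations of another setting with leaving out prednisolone 30 were added after seeing the data. No paired analysis was possible because the groups share no replicate numbers.

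RET reversed without prednisolone 30 (-0.33), also without control 17 (-0.047), in the deposited table (-0.38), with array weights (-0.20) and within slide 1 (-1.02). Without prednisolone 30 it was -0.36 in the deposited table, -0.33 by quantile, -0.32 by normexp and by median scaling, -0.30 with a scan day block and -0.49 with a slide block; its other probes gave -0.16 and -0.35, and SALL4 -0.052. UCHL1 reversed to 0.14 without prednisolone 30, 0.092 without control 17 too, 0.13 by normexp, 0.12 in the deposited table, 0.092 with array weights and 0.17 within slide 1. Without prednisolone 30 it was 0.13 in the deposited table, 0.15 by quantile and median scaling, 0.14 by normexp, 0.17 with a scan day block and 0.22 with a slide block. KIT reversed to 0.036 by normexp, 0.0064 with array weights, 0.072 with a slide block, 0.12 with a scan day block and within scan day 1, and 0.24 within slide 1. Without prednisolone 30 KIT was 0.0024 by quantile, 0.0060 by median scaling, 0.22 with a scan day block and 0.18 with a slide block. KITLG reversed to -0.047 in the deposited table and -0.055 within slide 1, and without prednisolone 30 to -0.14 by normexp and -0.025 with a scan day block. ID4 reversed to 0.070 without control 17, 0.095 without prednisolone 30 too, 0.14 by normexp, 0.016 with array weights and 0.20 within slide 4. DAZL reversed to 0.012 in the deposited table, 0.00080 with array weights, 0.12 with a scan day block and within scan day 1, and 0.78 within slide 1; without prednisolone 30 it was 0.41 with a scan day block and 0.31 with a slide block. GFRA1 reversed to 0.20 by normexp and 0.013 within slide 4, and KIT minus GFRA1 to -0.17 and -0.19. By quantile normalization GFRA1 moved to -0.70 and KIT minus GFRA1 to 0.52, with no call.

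Leaving out each of the other 13 animals in turn gave -0.25 to 0.091 for GFRA1, 0.16 to 0.51 for RET, -0.12 to 0.019 for KIT, 0.42 to 0.60 for KITLG, -0.15 to -0.051 for UCHL1, -0.11 to -0.0055 for ID4, -0.32 to -0.15 for DAZL and -0.17 to 0.23 for KIT minus GFRA1.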
